A study of Mus musculus with 12 samples.

Results

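The genes described here are 5 adhesion molecules of the vessel wall (Sele, Selp, Icam1, Vcam1 and Ackr1) and 5 genes of endothelial identity (Pecam1, Cdh5, Vwf, Plvap and Kdr), followed through the ear skin of mice injected with IL-17A, IL-36γ or both. They were found by matching their symbols to the Ensembl identifiers of the count table, which gave all 10 genes among 50684. All 10 passed the filter on low counts and stood among the 19408 genes tested, and the lowest count of any of them in any library was 71, for Selp. After IL-36γ all 5 adhesion genes rose at an adjusted p below 0.05, by 1.37-fold (Ackr1) to 2.32-fold (Sele), where 17.3% of all tested genes rose, while Plvap was the 1 identity gene that did (1.56-fold). The calls of Ackr1 and Vcam1 among these were lost in some other fits, given with each gene. After IL-17A + IL-36γ, Sele, Selp, Icam1 and Vcam1 rose 1.40 to 2.48-fold, Ackr1 stood at 0.972 times the PBS level, and Vwf and Kdr fell.

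Female C57BL/6 mice of 8 weeks received intradermal injections of 5 µl into the ear. Treatment ran over 4 consecutive days per the methods, which do not state the number of injections. The groups were PBS, IL-17A (1 µg), IL-36γ (1 µg) and IL-17A + IL-36γ (1 µg of each), with PBS as the solvent in all 4. Total RNA from a part of the ear was sequenced on day 4 in 3 mice per group, 12 libraries in all. Ear tissue was homogenized without sorting, so RNA of vessels was measured together with RNA of epidermis, dermis, muscle and blood cells.

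Endothelial cells line the vessels and control which leukocytes leave the blood. E-selectin and P-selectin catch passing leukocytes through sugar ligands and let them roll, and ICAM-1 and VCAM-1 then hold them through integrins. Inflammatory cytokines induce E-selectin, ICAM-1 and VCAM-1, while P-selectin is also kept ready together with von Willebrand factor in the Weibel-Palade bodies. Ackr1 binds chemokines without classical signalling, and in skin it marks venules. Identity genes such as Pecam1 and Cdh5 code for the junctions between endothelial cells, and changes in them are used to judge whether the endothelial content of a sample has changed.

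The libraries held between 25293468 and 34759293 counts. Markers of epidermis summed to 12426 to 35910 CPM (counts scaled to the library total, with TMM), as fits the label skin. By group these sums were 12426 to 18362 CPM after PBS, 18300 to 20578 after IL-17A, 23242 to 32066 after IL-36γ and 29844 to 35910 after IL-17A + IL-36γ. Muscle markers summed to 260 to 1362 CPM after IL-17A + IL-36γ, 1205 to 2249 after IL-36γ and 2171 to 3027 after IL-17A, and of the PBS libraries replicate 1 held 418 CPM of them against 3021 and 3490 CPM in the others. Neutrophil markers summed to 20.4 to 100 CPM after PBS, 387 to 883 after IL-17A, 2287 to 4845 after IL-36γ and 7623 to 10059 after IL-17A + IL-36γ. Most of each sum in the cytokine groups came from S100a8 and S100a9. These had means of 270 and 350 CPM with IL-17A, and 3359 and 4975 CPM with the combination. The paper names macrophages and keratinocytes as further sources of both proteins. Ly6g, Cxcr2 and Csf3r had means of 0.67, 42.3 and 76.1 CPM with the combination, against 0, 5.14 and 4.02 CPM with PBS. The part of neutrophils in the sums was not tested. Of all tested genes, the edgeR quasi-likelihood test at an adjusted p below 0.05 found 1443 higher and 677 lower after IL-17A, 3366 and 2153 after IL-36γ, and 4608 and 4056 after the combination. Scaling by library size alone turned these splits to 487 and 1993, 2137 and 4274, and 3213 and 5941, and moved the median of all genes to -0.13, -0.17 and -0.17 on the log2 scale from 0.04, -0.02 and -0.03.

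Sele and Selp lie near each other on chromosome 1 and code for both selectins of the endothelium. Sele (ENSMUSG00000026582) spans chr1:164048234-164057677 on the plus strand of GRCm38, and Selp (ENSMUSG00000026580) spans chr1:164115264-164150026 on the same strand. RefSeq promoter windows were matched for 5 of the 10 genes: Sele, Selp, Icam1, Ackr1 and Kdr. The 250 bases before the RefSeq start (GRCm38.p6, strand of the gene) are shown for 3 adhesion genes that rose both with IL-36γ and with the combination, and for Kdr as an identity gene that did not rise in any group. They lie at chr1:164047984-164048233 (Sele, plus), chr9:21015690-21015939 (Icam1, plus), chr1:164115014-164115263 (Selp, plus) and chr5:75978456-75978705 (Kdr, minus), and capitals mark matches to GGANATTCC, a κB-type element of the kind that NF-κB factors bind, searched on both strands.
Sele: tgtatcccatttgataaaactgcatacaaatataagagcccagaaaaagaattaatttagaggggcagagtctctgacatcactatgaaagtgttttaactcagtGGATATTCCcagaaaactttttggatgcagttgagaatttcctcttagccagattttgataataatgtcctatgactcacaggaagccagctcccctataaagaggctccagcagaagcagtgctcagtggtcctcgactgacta
Icam1: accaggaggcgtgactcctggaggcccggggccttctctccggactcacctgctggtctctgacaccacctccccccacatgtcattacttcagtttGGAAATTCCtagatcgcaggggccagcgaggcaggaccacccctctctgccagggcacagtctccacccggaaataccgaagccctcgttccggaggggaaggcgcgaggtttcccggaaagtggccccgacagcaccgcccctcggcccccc
Selp: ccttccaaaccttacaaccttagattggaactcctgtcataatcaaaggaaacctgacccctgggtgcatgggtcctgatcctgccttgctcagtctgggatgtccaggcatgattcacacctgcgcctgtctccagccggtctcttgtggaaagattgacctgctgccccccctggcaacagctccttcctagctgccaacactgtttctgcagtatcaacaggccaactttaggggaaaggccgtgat
Kdr: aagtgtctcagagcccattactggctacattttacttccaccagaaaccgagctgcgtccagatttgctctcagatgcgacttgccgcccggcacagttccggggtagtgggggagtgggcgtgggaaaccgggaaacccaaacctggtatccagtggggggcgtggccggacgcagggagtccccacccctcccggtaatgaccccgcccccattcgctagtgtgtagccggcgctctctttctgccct

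The element was chosen after these sequences were seen. It read GGATATTCC in Sele, with its first base 145 bases before the start, and GGAAATTCC in Icam1, with its first base 153 bases before the start. Of 32851 RefSeq windows from 250 bases before to 50 bases after a start, 306 (0.931%) held it. The windows of Selp, Ackr1 and Kdr held no match to these letters. No other spelling of a κB-type element was searched, so these windows cannot be said to lack one. The Ackr1 window, which is not printed, holds ggaaaattcc, a longer stretch of similar letters that the search could not match.

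Sele was measured at 2.77, 3.09 and 2.91 CPM after PBS and at 5.00, 5.92 and 4.71 CPM after IL-17A. After IL-36γ it reached 6.79, 7.92 and 5.65 CPM, and after IL-17A + IL-36γ 5.07, 7.17 and 8.19 CPM. Every library of the 3 cytokine groups lay above every PBS library, and the cytokine groups overlapped one another. The fold change was 1.78 after IL-17A (log2 0.83, SE 0.19, edgeR adjusted p = 0.0254), 2.32 after IL-36γ (log2 1.22, SE 0.19, adjusted p = 0.000892) and 2.33 after the combination (log2 1.22, SE 0.19, adjusted p = 0.000351). The IL-17A value did not pass when PBS replicate 2 or 3, or IL-17A replicate 1 or 2, was left out (highest adjusted p = 0.116). In unsorted ear tissue, more cells that carry a transcript and more transcript per cell cannot be told apart, for this gene and for all that follow.

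Selp stood at 2.38, 2.55 and 2.55 CPM after PBS, 4.88, 4.06 and 2.86 after IL-17A, 5.09, 5.09 and 4.68 after IL-36γ, and 5.35, 6.69 and 6.52 after IL-17A + IL-36γ. The combination libraries lay above all libraries of the other 3 groups, while IL-17A replicate 3 came close to PBS. Selp rose by a log2 value of 0.66 (SE 0.18, edgeR adjusted p = 0.0413) after IL-17A, 0.99 (SE 0.18, adjusted p = 0.00215) after IL-36γ and 1.31 (SE 0.18, adjusted p = 0.000165) after the combination. It was the one adhesion gene that stood higher after the combination than after IL-17A alone by this test (log2 0.65, SE 0.18, adjusted p = 0.0145). Against IL-36γ alone the difference was 0.32 on the log2 scale, with a 95% interval from -0.05 to 0.70 (adjusted p = 0.397). The IL-17A value missed the threshold when any 1 of 9 libraries was left out (highest adjusted p = 0.198). Exons of Selp overlap a pair of antisense genes, Gm16587 and Gm16548, and whether counting used the strand was not stated.

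Platelets also hold P-selectin. Of 8 platelet markers 5 were tested, and 3 of these rose after IL-36γ and after the combination, where 17.3% and 23.7% of all genes rose. Ppbp had a log2 fold change of 3.26, Pf4 of 1.51 and Gp1ba of 1.25 after the combination (edgeR adjusted p = 0.00011, 6.13e-05 and 0.0344). The integrin gene Itga2b, which defines the platelet lineage, had 0.12 (adjusted p = 0.402), and Gp9, Gp6 and Treml1 were under the filter. The sum of the 8 markers ranged from 49.5 to 72.1 CPM after PBS, 74.9 to 101 after IL-17A, 118 to 141 after IL-36γ and 121 to 169 after the combination. The part of platelets in the values of Selp was not tested.

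**Figure D1:**
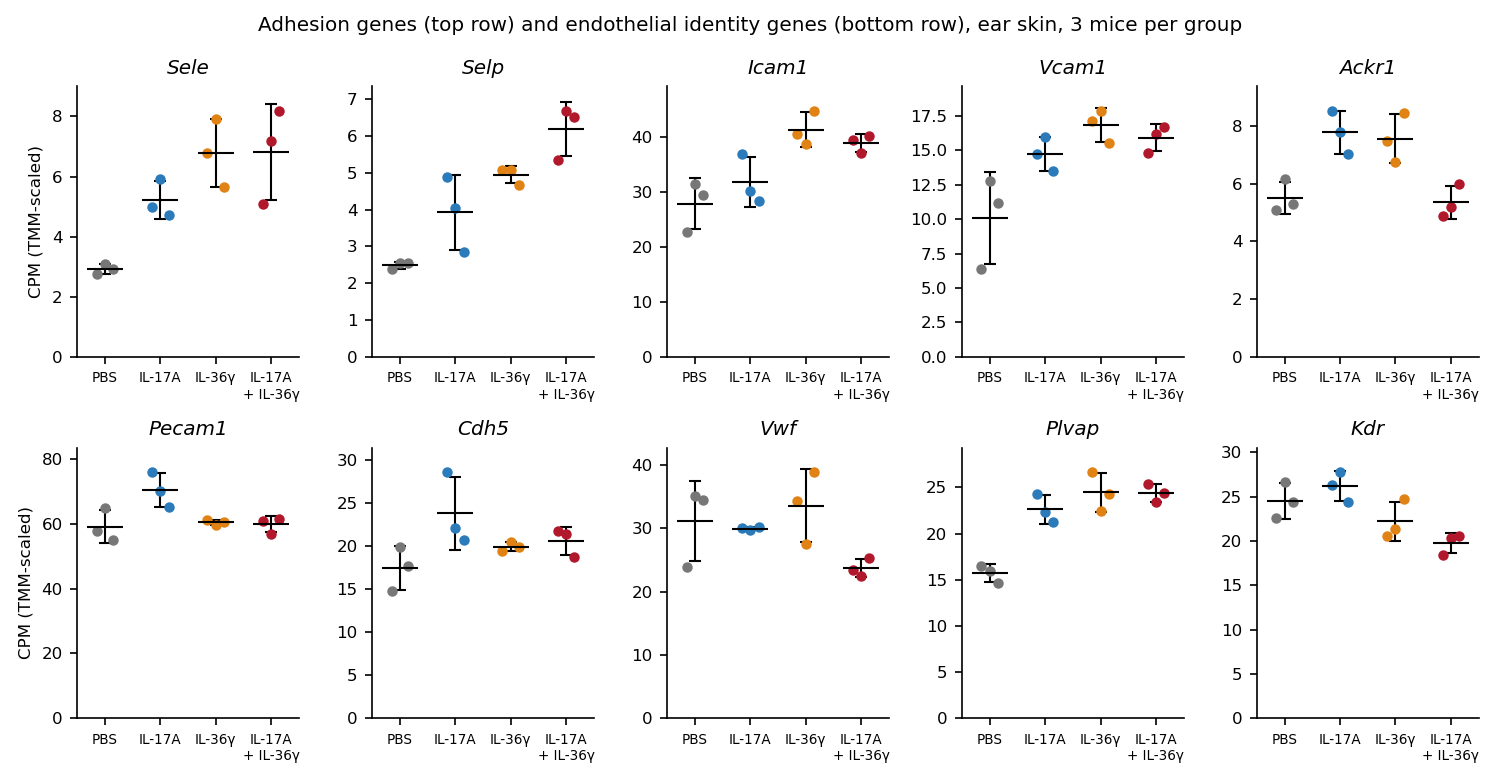
CPM (TMM-scaled, linear axes from 0) of the 5 adhesion genes in the top row and the 5 identity genes in the bottom row. Points are the 3 mice of each group, the horizontal bar is the mean and the whiskers are 1 SD. Sele lies above PBS in every cytokine library, Ackr1 is high after each cytokine alone and overlaps with PBS after both, and Plvap is the identity gene that is raised in all 3 cytokine groups.

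Icam1 and Vcam1 code for the integrin ligands that hold leukocytes on the vessel wall, and both are also made by epithelial, stromal and myeloid cells. Icam1 (ENSMUSG00000037405, chr9:21015985-21028817, plus strand) was measured at 22.7, 31.5 and 29.5 CPM after PBS and at 37.0, 30.2 and 28.4 CPM after IL-17A, so these groups overlapped. The libraries of IL-36γ (40.6, 38.7 and 44.9 CPM) and of the combination (39.4, 37.2 and 40.2 CPM) lay above those of both other groups. Icam1 rose by a log2 value of 0.57 (SE 0.12, edgeR adjusted p = 0.00626) after IL-36γ and 0.48 (SE 0.12, adjusted p = 0.00848) after IL-17A + IL-36γ. After IL-17A it had 0.19 (95% interval -0.08 to 0.47, adjusted p = 0.317).

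Vcam1 (ENSMUSG00000027962, chr3:116109949-116129688, minus strand) was the most variable adhesion gene after PBS, at 6.37, 12.7 and 11.2 CPM. It was at 14.7, 16.0 and 13.5 CPM after IL-17A, 17.1, 17.9 and 15.5 after IL-36γ, and 14.8, 16.2 and 16.7 after the combination. All cytokine libraries lay above the PBS libraries, and PBS replicate 1, the library with few muscle markers, was the lowest. Vcam1 rose by 0.74 (SE 0.19, edgeR adjusted p = 0.0149) after IL-36γ and by 0.66 (SE 0.19, adjusted p = 0.0159) after the combination on the log2 scale. The call after IL-36γ was lost without IL-36γ replicate 1 (0.70, adjusted p = 0.0526) or replicate 2 (0.69, adjusted p = 0.0512). After IL-17A it had 0.55 (SE 0.19) and missed the threshold (adjusted p = 0.0827). Without PBS replicate 1 the values after IL-36γ and the combination were 0.49 (adjusted p = 0.00559) and 0.41 (adjusted p = 0.00893). Scaling by library size alone gave 0.51 for Vcam1 and 0.33 for Icam1 after the combination, with adjusted p = 0.0618 and 0.0579. A fit of only the groups compared gave Vcam1 an adjusted p of 0.0584 after IL-36γ and 0.0588 after the combination.

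Ackr1 (ENSMUSG00000037872, chr1:173331886-173333750, minus strand), the atypical chemokine receptor of venules and of red cells, followed another order. It was at 5.09, 6.14 and 5.30 CPM after PBS, 8.53, 7.78 and 7.04 after IL-17A and 7.49, 6.73 and 8.44 after IL-36γ, but at 4.88, 5.19 and 5.99 after IL-17A + IL-36γ. Each cytokine alone separated from PBS, while the libraries of both cytokines together overlapped with PBS and lay below those of each cytokine alone. The log2 fold change was 0.50 (SE 0.13, edgeR adjusted p = 0.0394) after IL-17A, 0.45 (SE 0.13, adjusted p = 0.0257) after IL-36γ and -0.04 (SE 0.14, adjusted p = 0.824) after the combination. Ackr1 was lower after the combination than after IL-17A by a log2 value of -0.54 (SE 0.14, adjusted p = 0.0104), and had -0.49 against IL-36γ (adjusted p = 0.15). The call after IL-17A was lost without any of 6 libraries (highest adjusted p = 0.181) and that after IL-36γ without any of 4 (highest adjusted p = 0.0934). Library size alone, no filter and a fit of only the groups compared also ended both calls, with adjusted p = 0.142, 0.0783 and 0.0997 for IL-17A and 0.119, 0.0553 and 0.0597 for IL-36γ.

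The effect of IL-17A on Ackr1 was then compared between ears with and without IL-36γ. The difference of both effects, with minus without, was -0.99 on the log2 scale (SE 0.19, edgeR adjusted p = 0.0475). It was the 1 member of 10 with an adjusted p below 0.05 for this interaction, which 0.551% of all tested genes passed. An unadjusted p below 0.05 was found for 5 members, and the share of all genes at that unadjusted level is not given here. Leaving out single libraries gave adjusted p-values from 0.0255 to 0.149, with 10 of 12 above 0.05. All 6 tested genes of a red cell list rose after IL-17A, where 7.44% of all genes rose, with a median log2 fold change of 1.40 (all genes 0.04). Of them 0 passed after IL-36γ or after the combination, where 17.3% and 23.7% of all genes rose. Summed red cell markers ranged from 130 to 333 CPM after IL-17A, 61.6 to 105 after PBS, 82.3 to 147 after IL-36γ and 63.9 to 121 after the combination. The part of red cells in the values of Ackr1 was not tested. Exons of Ackr1 share 361 of 1405 bases with Cadm3 on the same strand, and how reads of that stretch were counted was not stated.

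Pecam1 and Cdh5 code for CD31 and VE-cadherin, the adhesion proteins of endothelial junctions, and Pecam1 is found on leukocytes and platelets too. Pecam1 (ENSMUSG00000020717) was at 57.8, 64.7 and 54.9 CPM after PBS and 75.9, 70.0 and 65.2 CPM after IL-17A. It was at 61.2, 59.7 and 60.6 CPM after IL-36γ and at 61.0, 57.0 and 61.5 CPM after IL-17A + IL-36γ, and these groups overlapped with PBS. Its log2 fold change was 0.25 (SE 0.08, edgeR adjusted p = 0.0525) after IL-17A, 0.03 (95% interval -0.13 to 0.20) after IL-36γ and 0.02 (95% interval -0.15 to 0.18) after the combination. In fold terms these intervals ran from 0.912 to 1.15 and from 0.902 to 1.13.

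Cdh5 (ENSMUSG00000031871) was at 14.8, 19.9 and 17.7 CPM after PBS, 28.6, 22.1 and 20.7 after IL-17A, 19.4, 20.5 and 19.9 after IL-36γ, and 21.7, 21.4 and 18.8 after the combination. IL-17A separated from PBS, with IL-17A replicate 1 the highest, and the other groups overlapped with PBS. Cdh5 rose after IL-17A by a log2 value of 0.45 (SE 0.13, edgeR adjusted p = 0.0491), just inside the threshold, and lost this call when any of 11 of the 12 libraries was left out. After IL-36γ and the combination it had 0.19 (adjusted p = 0.285) and 0.24 (adjusted p = 0.156).

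Plvap, which codes for the diaphragm protein of fenestrae and caveolae, was the identity gene that rose in all 3 cytokine groups. Plvap (ENSMUSG00000034845) was at 16.5, 16.0 and 14.6 CPM after PBS, 24.3, 22.4 and 21.2 after IL-17A, 26.7, 22.4 and 24.3 after IL-36γ, and 25.4, 23.4 and 24.4 after IL-17A + IL-36γ. Every cytokine library lay above every PBS library, and the 3 cytokine groups overlapped. Plvap rose 1.44-fold (edgeR adjusted p = 0.013), 1.56-fold (adjusted p = 0.000406) and 1.55-fold (adjusted p = 0.000169), with an SE of 0.09 on the log2 scale in each case. The IL-17A value missed the threshold when PBS replicate 3 (adjusted p = 0.0889) or IL-17A replicate 1 (adjusted p = 0.0803) was left out.

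Kdr and Vwf were the identity genes that fell. Kdr (ENSMUSG00000062960), the main VEGF receptor of endothelial cells, was at 22.5, 26.6 and 24.3 CPM after PBS, 26.3, 27.8 and 24.4 after IL-17A, 20.6, 21.4 and 24.7 after IL-36γ, and 18.5, 20.3 and 20.6 after the combination. The combination lay below all PBS and all IL-17A libraries. Kdr fell by 0.31 on the log2 scale after the combination against PBS (SE 0.09, edgeR adjusted p = 0.0189) and by 0.40 against IL-17A (SE 0.09, adjusted p = 0.00714). It had -0.14 (adjusted p = 0.272) after IL-36γ. The call against PBS was lost without PBS replicate 2 (-0.24, adjusted p = 0.0897), PBS replicate 3 (-0.31, adjusted p = 0.0509) or combination replicate 1 (-0.26, adjusted p = 0.0746).

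Vwf (ENSMUSG00000001930), the clotting factor stored with P-selectin, was at 24.0, 35.2 and 34.5 CPM after PBS and at 23.5, 22.5 and 25.4 CPM after the combination. PBS replicate 1 lay among the combination libraries, so the groups overlapped. IL-17A gave 30.0, 29.8 and 30.2 CPM and IL-36γ 34.3, 27.5 and 38.9 CPM. Vwf fell after the combination by 0.39 on the log2 scale (SE 0.15, edgeR adjusted p = 0.0463), and this call was lost when any of 9 of the 12 libraries was left out. Without PBS replicate 1 it fell by 0.55 (adjusted p = 0.00262), and with only the groups compared its adjusted p was 0.0685. Muscle markers had a median sum of 428 CPM in the combination libraries and 3021 CPM in the PBS libraries. Of these 10 markers 2 passed the test, both lower, which is near the 20.9% of all genes that fell. The median log2 fold change of the list was -1.72. The part of this shift in the falls of Kdr and Vwf was not tested.

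The members were then counted by set and read against all tested genes. After IL-17A, 3 of 5 adhesion genes and 2 of 5 identity genes rose at an adjusted p below 0.05, against 7.44% of all tested genes that rose and 3.49% that fell. After IL-36γ, 5 of 5 and 1 of 5 rose, against 17.3% of all genes that rose and 11.1% that fell. The 5 adhesion genes became 4 with library size alone or no filter, and 3 with only the groups compared. After the combination, 4 of 5 and 1 of 5 rose against 23.7%, and 0 of 5 and 2 of 5 fell against 20.9%. The 4 adhesion genes that rose became 2 with library size alone (Sele and Selp) and 3 with only the groups compared. With the 2-fold threshold of the study added, 0 members passed after IL-17A (2.1% of all genes), 1 after IL-36γ (Sele, 7.1%) and 2 after the combination (Sele and Selp, 13.4%). Libraries of 7, 6 and 6 of the 10 members did not overlap with PBS, where 33.6%, 41.7% and 52.5% of all genes did not. These 3 comparisons share the PBS libraries. The number that rose after IL-17A varied between 0 and 6 when single libraries were left out, and was 0 where PBS replicate 3 or IL-17A replicate 1 was missing. Sele, Selp, Icam1 and Plvap kept their calls after IL-36γ and after the combination without any single library.

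With IL-17A the adhesion genes had a median log2 fold change of 0.55, with IL-36γ one of 0.74 and with the combination one of 0.66. That of the identity genes was 0.25, 0.10 and 0.02, against medians of all genes of 0.04, -0.02 and -0.03. The adhesion median thus exceeded the identity median by 0.29, 0.63 and 0.64. With 22 other endothelial genes in the place of the 5 identity genes, the gap was 0.85 after IL-36γ and 0.91 after the combination. Without PBS replicate 1 the gap after the combination was 0.41.

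**Figure D2:**
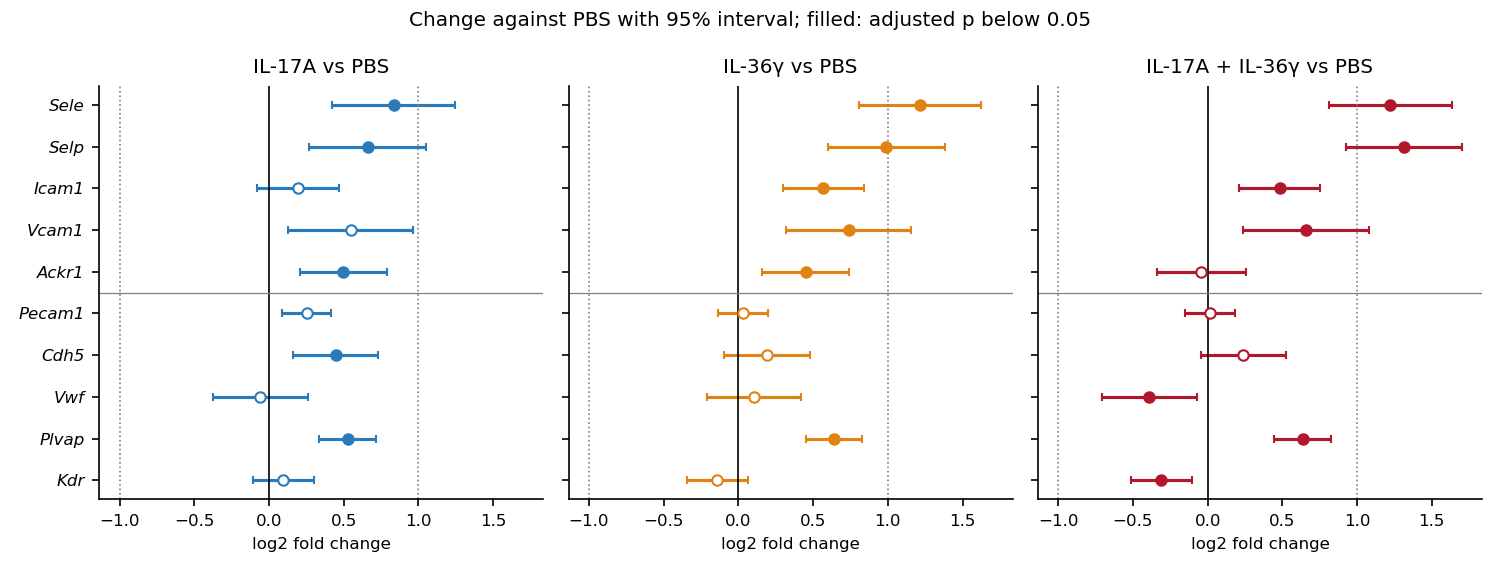
Log2 fold change against PBS (x axis) of the 5 adhesion genes (above the grey line) and the 5 identity genes (below it) in the 3 cytokine groups. Points are edgeR estimates, whiskers are 95% intervals, filled points have an adjusted p below 0.05 and dotted lines mark a 2-fold change. All 5 adhesion genes are filled after IL-36γ, while among the identity genes only Plvap is, and Vwf and Kdr lie to the left of 0 after the combination.

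Each adhesion gene was also set against the mean of the 5 identity genes in the same library, as a log2 ratio, which does not depend on the scaling of the libraries. For Sele this ratio was -3.16 ± 0.06 in the PBS group, -2.59 ± 0.18 with IL-17A, -2.13 ± 0.32 with IL-36γ and -2.01 ± 0.36 with both (mean ± SD, n = 3), which made 1.49, 2.05 and 2.22 times the PBS ratio. Selp reached 1.29, 1.77 and 2.40 times, Icam1 0.960, 1.33 and 1.37 times, and Vcam1 1.27, 1.54 and 1.59 times. The libraries of these 4 genes did not overlap with PBS after IL-36γ or after the combination, while after IL-17A that held for Sele alone among them. Ackr1 was at 1.18 times after IL-17A and 1.22 times after IL-36γ, both without overlap, and at 0.941 times after the combination, with overlap.

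Set against Pecam1 alone, the ratios of Sele, Selp, Icam1 and Vcam1 were 2.25, 1.94, 1.46 and 1.69 times those of PBS after IL-36γ, and 2.26, 2.44, 1.39 and 1.62 times after the combination. Each of these 8 differences had p = 0.1 in a two-sided exact permutation test, the smallest value that 3 against 3 libraries allow, and 0.18 after adjustment over 54 such tests. Among the identity genes themselves, each against the mean of the other 4, Plvap was at 1.26, 1.50 and 1.67 times the PBS ratio and Kdr at 0.871, 0.764 and 0.737 times, in all cases without overlap.

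**Figure D3:**
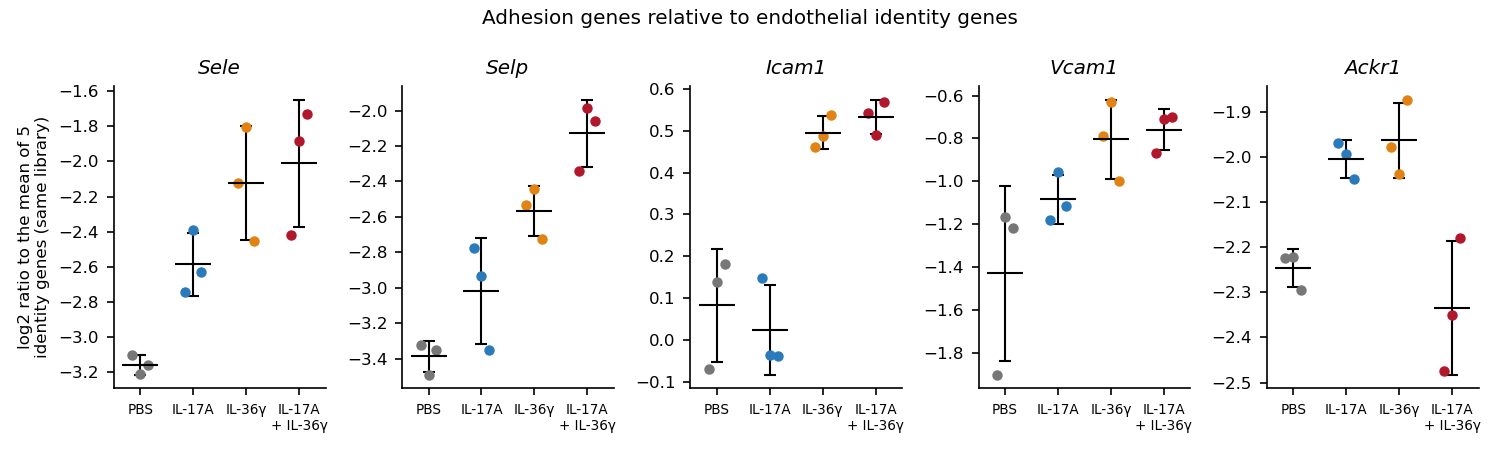
Log2 ratio of each adhesion gene to the mean of the 5 identity genes in the same library (y axis, a separate range for each gene). Points are the 3 mice of a group, bars the mean and whiskers 1 SD. The ratios of Sele, Selp, Icam1 and Vcam1 lie above all PBS libraries after IL-36γ and after both cytokines, and that of Ackr1 is raised only after either cytokine alone.

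The comparison of the combination with each cytokine alone asked what the second cytokine adds. Against IL-17A, 4 of 10 members passed at an adjusted p below 0.05. Selp rose, where 15.1% of all genes did, and Ackr1, Kdr and Pecam1 fell, where 17.7% did, Pecam1 by 0.24 on the log2 scale (SE 0.08, edgeR adjusted p = 0.0328, lost without any of 7 libraries). Against IL-36γ, 0 of 10 passed with edgeR (0.0206% of all genes), 2 had an unadjusted p below 0.05 (Ackr1 and Vwf) and DESeq2 called 1 (Ackr1). The difference was 0.01 for Sele (95% interval -0.39 to 0.40), -0.09 for Icam1 (-0.36 to 0.18), -0.08 for Vcam1 (-0.49 to 0.33) and 0.00 for Plvap (-0.19 to 0.18). Between IL-36γ and IL-17A, 0 of 10 passed with edgeR (7.98% of all genes), 3 had an unadjusted p below 0.05 (Icam1, Pecam1 and Kdr) and DESeq2 called the same 3. Icam1 had the largest estimate of these, 0.38 higher after IL-36γ (SE 0.12, adjusted p = 0.083). The shares given for all genes are those of edgeR at an adjusted p below 0.05. No such share is given for the unadjusted or the DESeq2 counts.

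Per kilobase of exon, the order of the PBS levels was Pecam1 at 9.50 CPM per kb, Plvap 7.90, Icam1 6.40, Cdh5 4.15, Ackr1 3.92, Kdr 2.71, Vwf 1.94, Vcam1 1.14, Sele 1.00 and Selp 0.565. The libraries of neighbours in this order did not overlap, except for Cdh5 with Ackr1 and Vcam1 with Sele. Both selectins stood at the end of this order, and in each comparison with PBS they had the largest fold changes of the 10 genes.

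The adhesion genes were also set against one another across the 12 libraries. The median Pearson correlation of log2 CPM was 0.75 (0.15 to 0.90) over the 10 pairs of adhesion genes, 0.27 (-0.41 to 0.75) over the 10 pairs of identity genes and 0.39 (-0.54 to 0.86) over the 25 mixed pairs. All points share the same libraries and the 4 groups, so these values describe the set and carry no test. Of 15525 named genes, those most like Sele were Ap1s3 (r = 0.96), Ccnq (0.96) and Gapt (0.95). The genes most like Selp were Ppp2r2a (0.99), Adam10 (0.98) and Gpcpd1 (0.97), and those most like Icam1 were Rassf2 (0.97), Rnf150 (0.96) and Cfap126 (0.96). For Vcam1 they were Cp (0.94), Twf2 (0.93) and Rarres2 (0.93), for Ackr1 Igfbp7 (0.95), Tgfbr2 (0.94) and Eps15 (0.93), and for Cdh5 Lbp (0.94), Palld (0.91) and Csf2rb2 (0.91).

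Other genes of the endothelium were taken from a list of 22. After IL-17A + IL-36γ 3 rose and 10 fell, against 23.7% and 20.9% of all genes, with a median log2 fold change of -0.25 (all genes -0.03). Those that fell most were the sialomucin gene Cd34 (-0.89, edgeR adjusted p = 0.00383) and the transcription factor Erg (-0.76, adjusted p = 0.000167). Next came the tight junction gene Cldn5 (-0.64, adjusted p = 0.00355) and the transcription factor Sox17 (-0.60, adjusted p = 0.0189). The 3 that rose were Sox7 (0.95), the TGF-β co-receptor Eng (0.56) and Ecscr (0.40). After IL-17A alone 2 rose and 0 fell, where 7.44% and 3.49% of all genes did. After IL-36γ alone Eng rose and Erg fell, where 17.3% and 11.1% of all genes did. Their summed level was 370 to 491 CPM after PBS, 463 to 522 after IL-17A, 374 to 445 after IL-36γ and 316 to 371 after the combination. Cd34 was the largest single part of these sums, with a mean of 187 CPM after PBS and 101 CPM after the combination. The cells that carried Cd34 in the ear were not tested.

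Markers of the cells around vessels moved beside these genes. Of 10 genes of pericytes and smooth muscle, 7 fell after the combination, against 20.9% of all genes, with a median of -0.76 (all genes -0.03), among them Abcc9 (-1.36, edgeR adjusted p = 0.00421) and Rgs5 (-1.06, adjusted p = 0.000196). Their summed level was 478 to 561 CPM after PBS and 336 to 398 CPM after the combination. Of 16 genes of the VEGF and angiopoietin pathways 1 rose (Vegfd, 0.70, adjusted p = 0.00132) and 2 fell (Angpt1, -0.72, adjusted p = 0.00671, and Tek, -0.54, adjusted p = 0.0304), both shares below the 23.7% and 20.9% of all genes. Vegfa, the ligand of Kdr, had 0.24 (adjusted p = 0.207). The part of these cells in the fall of Kdr and Vwf was not tested. Nor was that of the lower muscle markers or the higher epidermis markers in the falls of the endothelial and mural genes.

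Of 12 tested genes for other adhesion and junction molecules of the vessel wall, 4 rose and 4 fell after the combination, where 23.7% of all genes rose and 20.9% fell. Nectin2 (0.56), the anticoagulant receptor Thbd (0.47), Cd47 (0.42) and F11r (0.32) rose. Aoc3 (-1.16), which codes for vascular adhesion protein 1, fell with Jam3 (-0.57), Jam2 (-0.44) and Alcam (-0.39). After IL-17A 1 gene of this list rose (Cd47), where 7.44% of all genes did. After IL-36γ 2 rose (Cd47 and Nectin2) and 1 fell (Alcam), where 17.3% and 11.1% of all genes did. Which cells of the ear these transcripts came from, vessel wall or other, was not tested.

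Leukocytes carry the partners of the adhesion molecules. Of 9 tested genes for leukocyte integrins and related molecules 6 rose with IL-17A, 7 with IL-36γ and 7 with both, where 7.44%, 17.3% and 23.7% of all genes rose, with medians of 0.46, 1.12 and 1.12. With library size alone 3 rose with IL-17A. Itgb1 (-0.05) and Itgax (-0.10) did not pass after the combination. Itgam and Itgal, the α chains of the ICAM-1 receptors Mac-1 and LFA-1, rose by 2.59 and 1.98 after the combination, and their shared β chain Itgb2 by 1.56, with 1.60 for Fermt3, which codes for the integrin activator kindlin-3. Itga4, part of the VCAM-1 receptor VLA-4, rose by 1.12. Of 10 tested genes for selectin ligands and their synthesis 5 rose and 3 fell after the combination, where 23.7% and 20.9% of all genes did. Selplg, which codes for the ligand PSGL-1, rose by 1.50, with the glycosyltransferase genes Fut7 (1.20) and Gcnt1 (0.89), while the sulfotransferase gene Chst2 fell by 1.22. Of 8 macrophage markers 6 rose after the combination, where 23.7% of all genes did, and Mertk fell (-0.27, edgeR adjusted p = 0.0475).

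Inflammatory genes that activated endothelium expresses, as do other cells, were taken from a list of 18. Of these 8 rose with IL-17A, 11 with IL-36γ and 15 with both, where 1 fell, against 7.44%, 17.3% and 23.7% of all genes that rose, with medians of 1.19, 1.48 and 1.83. The lipocalin gene Lcn2 (5.40), the chemokine genes Cxcl5 (4.88) and Cxcl1 (3.98) and the interleukin gene Il6 (3.75) had large changes after the combination, and F3, which codes for tissue factor, fell by 1.02 (edgeR adjusted p = 0.000315). The source of these transcripts in the ear was not tested.

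**Figure D4:**
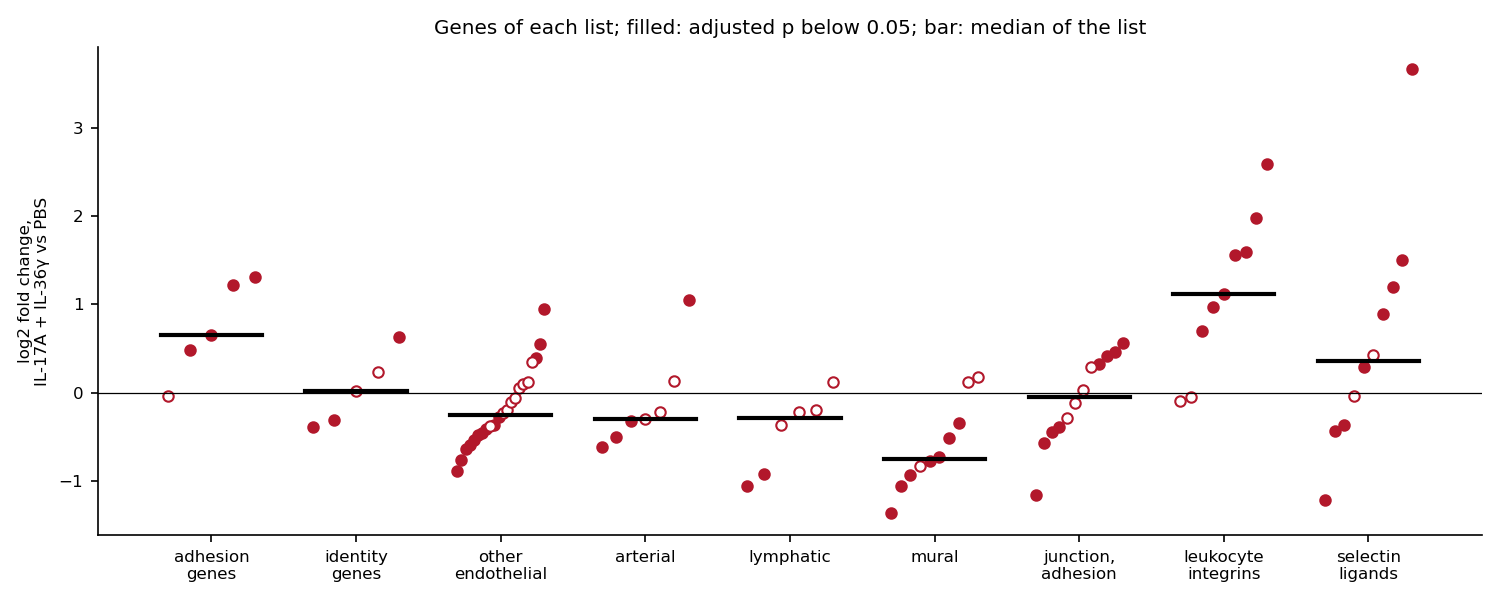
Log2 fold change of IL-17A + IL-36γ against PBS (y axis) for the genes of 9 lists. Each point is a gene, filled where the adjusted p is below 0.05, and the bar is the median of the list. The adhesion genes sit around a median of 0.66 and the identity genes around 0.02, 10 of 22 other endothelial and 7 of 10 mural genes are filled below 0, and leukocyte integrins have a median of 1.12.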

How the data were processed

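RNA-Seq libraries came from 12 mouse ears, and the sample titles gave 4 groups of 3. The authors prepared stranded libraries of ribosome-depleted total RNA, aligned the reads to mm10 with STAR 2.5.2b and counted them per gene with featureCounts (Subread 1.5.1), as their methods and processing notes state. The annotation release and the strand setting of the counting are not given in the sources used here. The deposited counts are whole numbers per Ensembl gene without normalization. The authors also deposited tables of 5 comparisons with means, log2 fold changes and p-values, from which only gene symbols were used (47020 of 50684 genes). Positions were taken from GENCODE vM21 of GRCm38, and promoter sequences from RefSeq (GRCm38.p6).

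Genes were filtered with filterByExpr (minimum count 10), which left 19408, and scaled by TMM. The quasi-likelihood test of edgeR 4.0.16 (R 4.3.3, limma 3.58.1) was fitted to the 4 group means of all 12 libraries, with Benjamini-Hochberg adjustment over all genes tested, and the biological coefficient of variation was 14.2%. "Rose" and "fell" stand for an adjusted p below 0.05, and the 2-fold threshold is that of the study's methods. Alternatives were other scalings, other filters, DESeq2 1.42.0, fits of only the groups compared, a replicate block and leaving out each library. Scaling alternatives for the lists were added after seeing the data. The procedure was tested on simulated data.

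The members and 20 lists of 186 genes were chosen with earlier results of these data known. Named from each list are up to 4 genes with the largest changes after the combination among those past both thresholds. Other genes of the lists, such as Itga4, F3 and those at an adjusted p below 0.05 alone, were named after their values were seen. Coordinates count from 1. Within groups, no pair of libraries was a copy of another (chi-square per gene 7.09 to 64 over 12 pairs). Per the methods, the 3 samples of a group were drawn at random from 5. Litter, cage and day are not given in the sources used here, and p-values measure the spread between these samples. The group medians of the totals were 32050090 (PBS), 28686487 (IL-17A), 32248986 (IL-36γ) and 27736782 counts (both cytokines). The estimated spread includes counting error. The values of 1 gene of the wider lists are not reported here.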

Additional observations from a re-analysis of the deposited data

Results flagged for a closer look

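The change of Ackr1 by IL-17A differed with and without IL-36γ: the interaction was -0.991 on the log2 scale (SE 0.19, edgeR adjusted p = 0.0475). Ackr1 had 0.50 after IL-17A against PBS and -0.49 after IL-17A + IL-36γ against IL-36γ. The adjusted p was 2.718e-06 with the likelihood ratio test of DESeq2 and ranged up to 0.149 with single libraries left out.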

How the results depend on the processing

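Over the alternatives that left out no library, 443 of 480 values of single members kept their side of the threshold, 27 no longer passed and 10 passed newly. The sign changed for 10 uncalled values and for no called value. Scaling by library size alone turned the signs of uncalled values of Pecam1 to -0.12 after IL-36γ and -0.13 after the combination. After IL-17A, the members at an adjusted p below 0.05 numbered 2 with library size alone, 2 without a filter and 0 with only the groups compared, instead of 5. The interaction numbered 0 members with RLE scaling, 0 with library size alone and 0 with at least 10 counts in every library, and 3 with DESeq2 (Ackr1, Sele and Plvap), instead of 1. DESeq2 gave 1 member instead of 0 for the combination against IL-36γ and 3 instead of 0 for IL-36γ against IL-17A. The shares of all genes that passed in DESeq2 are not given here, so its counts cannot be set against a background. Without the 2-fold threshold, 5, 6 and 7 members passed after IL-17A, IL-36γ and the combination, and 4 for the combination against IL-17A. With the wider endothelial list, the gap of medians was 0.848 after IL-36γ and 0.911 after the combination. The cause of these changes was not tested.

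The sources used here do not say whether same-numbered libraries share a batch or day. Of 18 correlations of their deviations 9 were over 0.1 (-0.199 to 0.352), and 8 of 12 libraries correlated best with their own number. These values do not settle whether the numbers mark pairs, and the main fit held no term for the replicate number. A replicate block gave 2 interactions (Ackr1 and Plvap, -0.53, adjusted p = 0.0298) and added Pecam1 after IL-17A (0.25, adjusted p = 0.047).

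With single libraries left out, the members at an adjusted p below 0.05 ranged from 0 to 6 after IL-17A and from 0 to 1 for IL-36γ against IL-17A. Past the 2-fold threshold they ranged from 1 to 2 after IL-36γ, interactions ranged from 0 to 2, and the gap of medians after the combination from 0.4121 to 0.7748. For the lists, library size alone left 2 rising and 10 falling of 22 endothelial genes after the combination, and 0 rising and 7 falling of 10 mural genes. The lowest counts were 71 for Selp, 96 for Sele and 230 for Vcam1, with SEs against PBS of 0.18, 0.19 and 0.19.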

Other observations

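Among genes of lymphatic vessels, 6 of 7 were tested, and Ccl21a had no count in any library. After IL-17A + IL-36γ 2 fell, where 20.9% of all genes did: Reln (-1.06, edgeR adjusted p = 0.000126) and Mmrn1 (-0.92, adjusted p = 7.71e-05). Prox1, the factor that defines lymphatic endothelium, had -0.36 (adjusted p = 0.0787) and Lyve1 -0.22 (adjusted p = 0.304). In the combination against IL-17A, all 6 fell, where 17.7% of all genes did. The same Reln (-0.52) and Mmrn1 (-0.41) fell after IL-36γ alone, where 11.1% of all genes fell. The summed level of the list was 232 to 264 CPM after PBS and 157 to 171 CPM after the combination.

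After the combination 23.7% of all tested genes rose and 20.9% fell, and the counts of the small lists that follow stand against these shares. Of 7 arterial genes 1 rose after the combination, the gap junction gene Gja5 (1.05, edgeR adjusted p = 0.0105), and 3 fell, Sema3g (-0.62), Hey1 (-0.50) and Efnb2 (-0.32). Of 6 venous genes, a list that shares Selp, Ackr1 and Vwf with the members, 1 rose (Selp) and 3 fell, among them Nr2f2 (-0.49, adjusted p = 0.0124) and Ephb4 (-0.39, adjusted p = 0.00229). Of 9 genes of Weibel-Palade bodies, which also include Selp and Vwf, 2 rose and 3 fell after the combination, with Cd63 at 0.51 (adjusted p = 0.00509), Edn1 at -0.88 (adjusted p = 0.00169) and Rab27a at -0.55 (adjusted p = 0.000971). Of 6 fibroblast genes 2 fell, Col1a2 (-0.61, adjusted p = 0.0278) and Dcn (-0.31, adjusted p = 0.0293).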
